A study of Homo sapiens with 12 samples.

Results

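The comparison described here sets MDA-MB-231 cells that carried a short hairpin RNA against RIPOR3 (shRIPOR3) beside the same cell line with a control hairpin (shControl), both kept in normoxia. It was chosen by label and rests on 6 of the 12 RNA sequencing libraries of the series, 3 per hairpin. The other 6 libraries held the same 2 lines after hypoxia (1% O2 for 24 hours) and served here to see which differences returned. The shControl cells are labelled wild type and the shRIPOR3 cells RIPOR3 knockdown. Every library in the knockdown arm carries the same hairpin name, no second hairpin or rescue was among the libraries used here, and the labels do not say whether a line was a pool or a clone. The study as a whole asked how RIPOR3 acts in breast tumour growth and spread.

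MDA-MB-231 is an established line from a triple-negative breast cancer, which lacks oestrogen and progesterone receptors and HER2 amplification, and its cells have a spindle shape, migrate readily and form metastases in mice. RIPOR3 is the least studied of a family of 3 proteins, RIPOR1 to RIPOR3, named for binding of the better-known members to GTPases of the RHOA family. These GTPases are small switches: with GTP bound they engage effectors such as ROCK, formins, PAK and PKN kinases, which build actin filaments, drive myosin contraction and place cell adhesions. SRF with its coactivators, and YAP with TAZ, are transcription factors and coactivators that respond to the state of the actin skeleton.

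The 6 libraries held between 14750734 and 30032858 counts, and 15648 of 24641 gene symbols had enough counts to be tested. Levels are given as CPM, the count scaled to a common library size with TMM factors, in the order replicate 1, 2 and 3, and differences as the log2 fold change of shRIPOR3 over shControl ± SE from edgeR. A gene is said to rise or fall where its adjusted p, by edgeR's quasi-likelihood test with Benjamini-Hochberg adjustment over all 15648 genes, was under 0.05. The first principal component of the 6 libraries, with 53.3% of the variance, separated the hairpins. The second, with 14.6%, set replicate 2 of shControl, the library with the fewest counts, apart from the other shControl libraries. It also set replicate 1 of shRIPOR3, the library with the fewest counts of that group, apart from the other shRIPOR3 libraries. Replicates differed by more than sampling noise (chi-square per degree of freedom from 2.49 to 3.87). The labels do not say whether replicates came from separate cultures, and the p-values then reflect differences among these libraries alone, possibly of a technical kind. Markers of the line were present: the 12 basal and mesenchymal markers, such as VIM, CD44 and AXL, summed to 6818 to 7189 CPM of library total in shControl and 6462 to 6528 in shRIPOR3. The 12 luminal and epithelial markers summed to 1364 to 1453 CPM in shControl and 1472 to 1507 in shRIPOR3. Neither sum overlapped between the hairpins, the first lower and the second higher in shRIPOR3. MSN made up most of the first (mean 4674 against 4412 CPM) and KRT8 most of the second (954 against 1024). Single members went both ways. Of the 12 basal and mesenchymal markers 3 rose and 4 fell, and of 11 tested luminal and epithelial markers 2 rose and 1 fell. The rise of KRT8 (0.11) was lost with only the 2 groups in the fit. It was also lost without replicate 2 of shControl or replicate 2 or 3 of shRIPOR3. The 2 luminal and epithelial markers that rose became 0 without replicate 3 of shRIPOR3. The sums were 0.53 to 1.22 and 0.191 to 0.524 CPM for 4 blood markers, and 3.22 to 4.75 and 2.43 to 3.56 for 6 fibroblast markers. The 5 endothelial markers summed to 13.6 to 15.4 CPM in shControl and 8.77 to 10.5 in shRIPOR3, with VWF at 0, 0 and 2 counts against 0, 1 and 2. Of these, PECAM1 (mean 5.17 against 1.18 CPM) and CDH5 (2.12 against 1.26) were lower, while KDR had 6.51 against 6.41 and TEK 0.81 against 0.752. In bulk RNA, fewer cells of a kind and less RNA per cell cannot be told apart.

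RIPOR3 itself was close to the detection limit. The gene lies at chr20:50586108-50691528 on the minus strand (GRCh38). Its libraries held 7, 3 and 7 counts in shControl and 0, 0 and 1 in shRIPOR3, and the groups did not overlap. The fitted log2 fold change was -3.75 ± 0.892 (edgeR adjusted p = 0.0013), and the ratio of summed counts, shControl over shRIPOR3, had a 95% exact Poisson interval of 2.62 to 698, which covers counting error only. Without replicate 3 of shRIPOR3, the library with the single count, the fitted value was -6.07, which is no bound because the group is then at 0. Of its relatives, RIPOR1, a RHOA effector, had 78.7, 76.01 and 78.6 CPM in shControl and 76.8, 70.5 and 75.9 CPM in shRIPOR3, overlapping groups with a log2 fold change of -0.07 ± 0.0537 that did not pass the test, and RIPOR2 had too few counts to be tested. The 3 nearest tested genes on each side of RIPOR3 on chromosome 20 did not share its drop. On the lower side, the phosphatase gene PTPN1 (-0.10 ± 0.0347, a call lost without replicate 3 of shControl or replicate 1 of shRIPOR3) and LINC01270 (-0.67 ± 0.228) fell, and the transcription factor gene CEBPB had 0.10 ± 0.0527. On the upper side, the polarity gene PARD6B fell (-0.56 ± 0.0933), ADNP rose (0.14 ± 0.0396) and BCAS4 had -0.06 ± 0.109. LINC01270 shares 44.2% of its exonic bases with LINC01271 on the opposite strand. The call of LINC01270 was lost in DESeq2, in thinned libraries and without replicate 3 of either hairpin.

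The response was broad and mostly small. In the test 7151 of 15648 genes passed (45.7%), 3934 higher (25.1%) and 3217 lower (20.6%), and the median log2 fold change over all genes was 0.03. Of the called genes 7.83% differed by 2-fold to 4-fold and 1.45% by more. At least 2-fold, 266 genes rose (1.7% of those tested) and 398 fell (2.54%), and at least 4-fold the split was 36 and 68. With a filter of 1 CPM in 3 libraries the count of genes at least 2-fold higher went from 266 to 149, where 143 of the 266 had a mean under 1 CPM. The count at least 2-fold lower went from 398 to 281 with it, where 189 of the 398 had a mean under 1 CPM. A test against a 1.2-fold change instead of no change, glmTreat, called 2455 genes. Any list below is to be read against these shares. The replicates of the 2 hairpins did not overlap in 8112 genes (51.8%).

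The kinds of RNA moved unequally. Of 1530 long noncoding genes 260 rose and 115 fell, with a median log2 fold change of 0.14, and of 1171 pseudogenes 179 rose and 69 fell, with a median of 0.11. Among 12552 protein-coding genes 3434 rose and 2970 fell, with a median of 0.02. Long noncoding genes had a median level of 0.641 CPM and protein-coding genes one of 19.6 CPM. The part of the low level, or of reads shared with a parent gene, in these medians was not tested. By position, the medians of 10-Mb windows with at least 30 tested genes ran from -0.14 to 0.28, the highest on chromosome 3 from 150 to 160 Mb, where 20 of 44 genes rose and 3 fell. The same window had a median of 0.09 in hypoxia. By chromosome, the medians were highest on chromosome 18, where 80 of 241 genes rose and 41 fell, and lowest on chromosome 22, where 63 of 334 rose and 82 fell. Chromosome 18 had a median of 0.11 in normoxia and -0.06 in hypoxia, and chromosome 22 had -0.05 and -0.007.

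**Figure D1:**
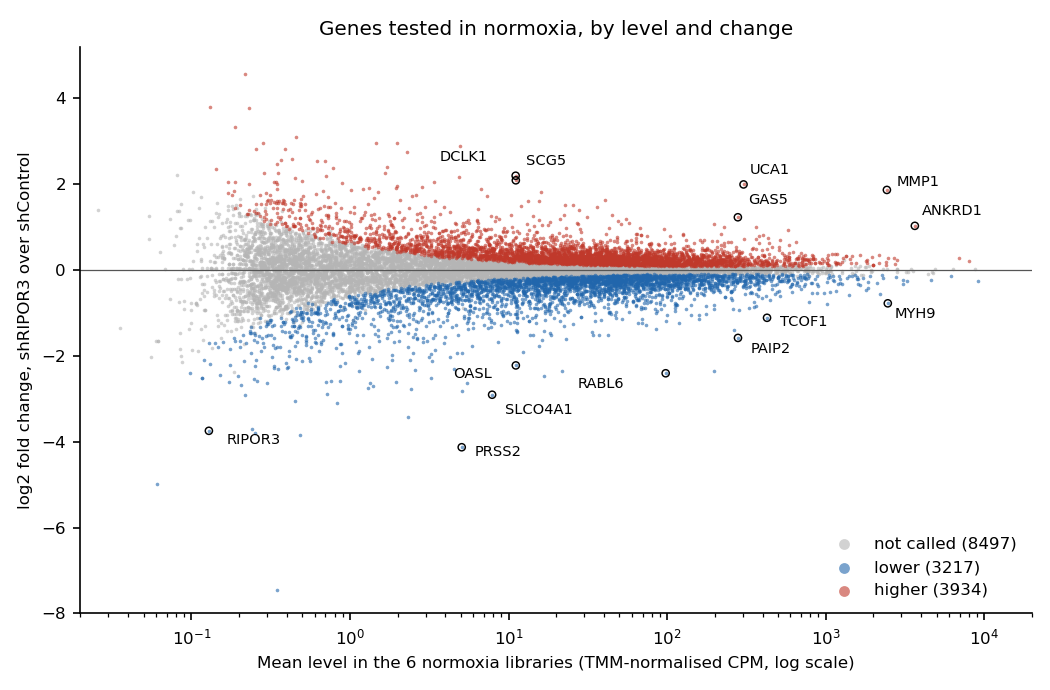
Each point is 1 of 15648 genes, placed by its mean level over the 6 normoxia libraries (CPM, log axis) and its log2 fold change, shRIPOR3 over shControl; red genes rose (3934), blue genes fell (3217) and grey genes were not called (8497). PAIP2, MMP1 and ANKRD1 stand far from the bulk of the abundant genes, and RIPOR3 lies at the low end of the level axis.

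UCA1, a long noncoding RNA first described in bladder cancer, lies at chr19:15828206-15836326 (GRCh38) and had 119, 128 and 118 CPM in shControl and 493, 483 and 479 CPM in shRIPOR3. Every shRIPOR3 library lay far above every shControl library, a log2 fold change of 2.00 ± 0.0423 (edgeR adjusted p = 6.94e-21). MMP1, the interstitial collagenase that cuts fibrillar collagen, lies at chr11:102789920-102798160 and had 1054, 1026 and 1056 CPM in shControl and 3874, 3751 and 3832 CPM in shRIPOR3, a change of 1.87 ± 0.0386 (edgeR adjusted p = 5.67e-21). MMP3, stromelysin 1, which can activate other matrix metalloproteinases and lies beside MMP1 in the cluster on chromosome 11, had 6.41, 6.18 and 8.27 CPM in shControl and 27.1, 23.9 and 24.8 CPM in shRIPOR3 (1.82 ± 0.0856). The groups lie far apart for each of these genes.

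DCLK1, a microtubule-binding kinase that marks tuft cells and some tumour cells, had the largest rise by the naming rule, with 4.12, 4.21 and 3.703 CPM in shControl and 17.9, 17.2 and 19.5 CPM in shRIPOR3 (2.20 ± 0.0949, edgeR adjusted p = 5.06e-15). SCG5, which encodes the neuroendocrine chaperone 7B2 of prohormone convertase 2, had 4.12, 4.77 and 3.95 CPM in shControl and 18.4, 17.8 and 17.7 CPM in shRIPOR3 (2.09 ± 0.0817). BDNF, the neurotrophin, had 13.97, 12.2 and 13.3 CPM in shControl and 38.7, 36.3 and 39.3 CPM in shRIPOR3 (1.52 ± 0.0723). These were the 3 increases of at least 2-fold on a list of 17 tested neurotrophin and neuroendocrine genes. Of that list 4 rose and 4 fell (47.1% called, beside 45.7% of all genes). The lowest value on it was that of NTRK2, the receptor of BDNF, with 1.23, 1.68 and 0.935 CPM in shControl and 0.529, 0.549 and 0.4202 CPM in shRIPOR3 (-1.30 ± 0.273).

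SERPINB2, an inhibitor of urokinase and tissue plasminogen activator, had 19.3, 17.7 and 21.3 CPM in shControl and 62.6, 60.95 and 60.4 CPM in shRIPOR3 (1.64 ± 0.0585). TNFRSF11B, the secreted RANKL decoy osteoprotegerin, changed by 1.62 ± 0.09804, the proteoglycan gene ESM1 by 1.61 ± 0.095, the zinc finger gene ZNF404 by 1.72 ± 0.117 and the noncoding RNA LINC00910 by 1.88 ± 0.105. MT1E, a metal-binding metallothionein, changed by 1.51 ± 0.0726, and its relative MT2A by 0.93 ± 0.0617, from mean levels of 399 to 761 CPM. Metallothionein genes are similar in sequence, so reads may be split between them.

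Among genes of at least 200 CPM in 1 group, GAS5, a host gene of small nucleolar RNAs whose spliced transcript accumulates when growth stops, had 164, 165 and 172 CPM in shControl and 397, 382 and 397 CPM in shRIPOR3 (1.23 ± 0.0385, edgeR adjusted p = 2.5e-17). FTL, the light chain of the iron store ferritin, had 133, 123 and 129.7 CPM in shControl and 264, 267 and 277 CPM in shRIPOR3 (1.07 ± 0.0417), and has many processed pseudogenes, so its count is uncertain. ANKRD1, a nuclear target of YAP, had 2399, 2397 and 2399 CPM in shControl and 4994, 5007 and 4706 CPM in shRIPOR3 (1.03 ± 0.0374). KRT81, a hair keratin, had 189, 243 and 296 CPM in shControl and 458, 442 and 568 CPM in shRIPOR3 (1.01 ± 0.106); its shControl replicates spread over more than 100 CPM, below every shRIPOR3 replicate, and it has close relatives. MIR137HG, the host transcript of the microRNA miR-137, had 5.22, 5.33 and 5.25 CPM in shControl and 12.5, 12.3 and 11.5 CPM in shRIPOR3 (1.19 ± 0.0846).

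**Figure D2:**
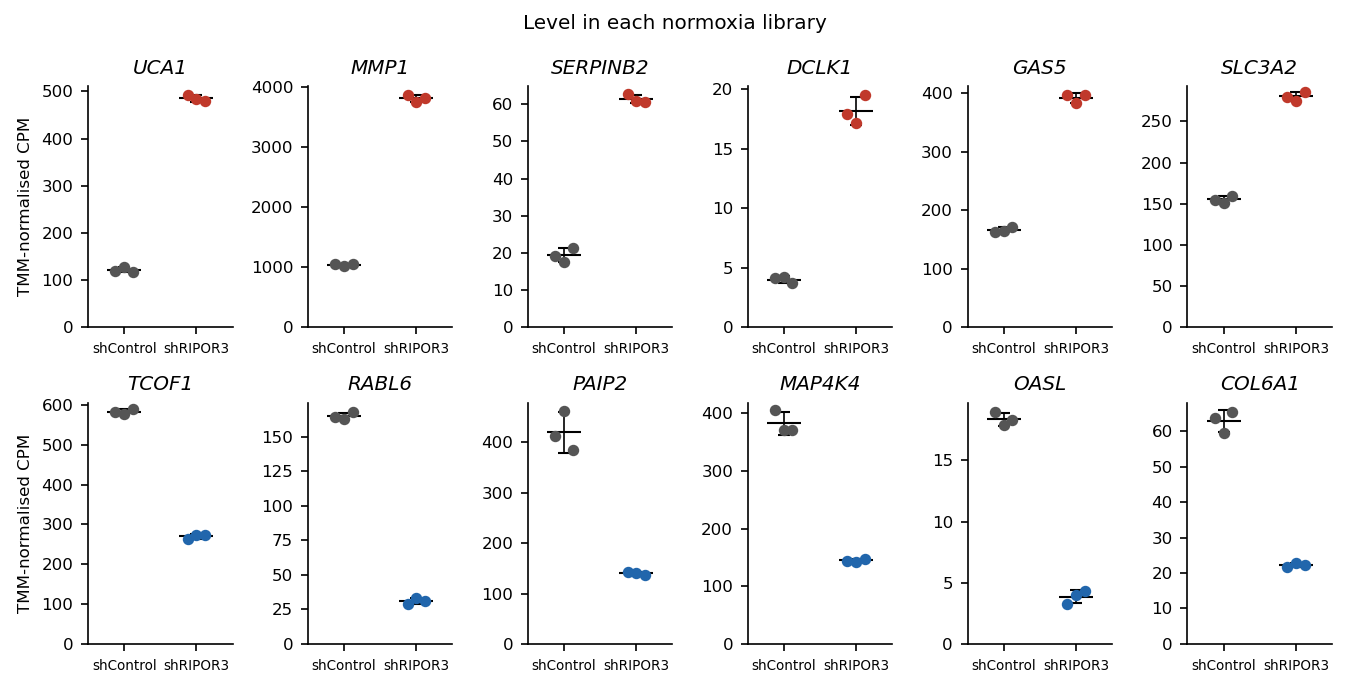
Levels of 12 genes in each normoxia library (TMM-normalised CPM, linear axes from 0); points are libraries, the wide tick is the mean and the bar 1 SD, n = 3 per hairpin. In every panel the 3 shRIPOR3 libraries lie wholly above (red) or below (blue) the 3 shControl libraries (grey), as for PAIP2, from 419.6 to 140.2 CPM.

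Several abundant genes fell steeply, and RABL6 was among the 12 largest falls overall. RABL6, a RAB-like GTPase, had 164, 163 and 168 CPM in shControl and 28.8, 33.5 and 30.8 CPM in shRIPOR3 (-2.40 ± 0.0586). MAP4K4, a STE20-type kinase that controls focal adhesion turnover, had 406, 371 and 371 CPM in shControl and 144, 142 and 148 CPM in shRIPOR3 (-1.40 ± 0.04199), PAIP2, a repressor of the poly(A)-binding protein, had 412, 463 and 384 CPM in shControl and 143, 142 and 136 CPM in shRIPOR3 (-1.58 ± 0.0564), and TCOF1, the nucleolar protein treacle, had 583, 578 and 589.7 CPM in shControl and 262, 274 and 274 CPM in shRIPOR3 (-1.11 ± 0.0386). PAFAH1B2, a catalytic subunit of a platelet-activating factor acetylhydrolase, went from 214 to 103 CPM (-1.05 ± 0.0429). The groups did not overlap for any of these genes. TUBA1A, an alpha tubulin, had 282, 127 and 248 CPM in shControl and 85.7, 106 and 110.3 CPM in shRIPOR3 (-1.13 ± 0.156), with 1 shControl replicate close to the shRIPOR3 libraries, and shares sequence with other tubulins.

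The organic anion transporter gene SLCO4A1 had the largest fall by the naming rule, with 14.6, 13.3 and 13.8 CPM in shControl and 1.65, 2.33 and 1.61 CPM in shRIPOR3 (-2.90 ± 0.121, edgeR adjusted p = 2.96e-15). DNM1, the dynamin of synaptic endocytosis, had 28.1, 27.02 and 30.1 CPM in shControl and 5.36, 4.94 and 5.18 CPM in shRIPOR3 (-2.47 ± 0.1003). AFAP1L2, an adaptor of SRC kinase (-1.91 ± 0.102), KLHL4, a kelch protein (-1.78 ± 0.08098), POLR3GL, a subunit of RNA polymerase III (-1.68 ± 0.126), and CEP70, a centrosome protein (-1.64 ± 0.0764), also fell. The tetraspanin CD82, known as a metastasis suppressor, had 8.87, 8.56 and 9.17 CPM in shControl and 1.65, 1.098 and 1.19 CPM in shRIPOR3 (-2.81 ± 0.132), the largest fall on a list of 21 tetraspanins of which 2 rose and 8 fell. Of the 21 tetraspanins 47.6% were called, beside 45.7% of all genes. The 2 that rose became 1 without replicate 1 or 3 of shControl or replicate 1 of shRIPOR3, and 0 in DESeq2 and in thinned libraries. SERF1B had 22.99, 79.6 and 8.52 CPM in shControl and 6.61, 6.45 and 6.58 CPM in shRIPOR3, so its shControl replicates were far from even; without replicate 2 of shControl its log2 fold change of -2.34 ± 0.475 became -1.25, and it has a near-identical copy. Of long noncoding RNAs, LINC00261 (-0.61 ± 0.0923), SUCLG2-AS1 (-0.59 ± 0.0887), BX640514.2 (-0.50 ± 0.0759) and LINC00601 (-0.50 ± 0.0808) fell. LINC00261 shares 86.1% of its exonic bases with another annotated gene on its own strand, so its reads cannot be assigned with certainty.

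The trypsinogen PRSS1 was at 0 in every normoxia shRIPOR3 library. Its shControl libraries held 16, 12 and 17 counts. Against a floor of 3 counts over the group it was at least 14.7-fold lower. PRSS2, a trypsinogen nearby that is similar in sequence, had 10.1, 8.84 and 9.81 CPM in shControl and 0.595, 0.549 and 0.525 CPM in shRIPOR3 (-4.13 ± 0.162), and reads of the pair may be split. On the list of secreted serine proteases, cystatins and cathepsins, 5 of 19 rose and 9 fell. The cystatins CST1 (-2.31 ± 0.147) and CST4 (-2.52 ± 0.164), inhibitors of cysteine cathepsins with near-identical sequences, were among the falls, as was the protease gene PRSS23 (-0.66 ± 0.0475). The 5 that rose became 3 without replicate 1 of shControl or replicate 3 of shRIPOR3.

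Genes of amino acid supply rose together. When amino acids run short or the endoplasmic reticulum is stressed, cells phosphorylate the initiation factor eIF2, and translation of the transcription factor ATF4 increases. ATF4 then switches on genes for amino acid synthesis, uptake and tRNA charging through C/EBP-ATF response elements. On the list of ATF4 and its stress targets 15 of 21 rose and 1 fell, with a median log2 fold change of 0.46 beside 0.03 for all genes. Of the serine, proline and one-carbon enzymes 11 of 17 rose and 1 fell (median 0.38), of the amino acid transporters 14 of 22 rose and 3 fell (median 0.34), and of the cytosolic aminoacyl-tRNA synthetases 14 of 20 rose and 2 fell (median 0.27). Earlier results on these libraries already showed ATF4 genes up, so the lists are not independent evidence of that direction.

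ATF4 mRNA had 288, 289 and 290.2 CPM in shControl and 514, 517 and 506 CPM in shRIPOR3 (0.82 ± 0.03398, edgeR adjusted p = 2.42e-15). Its partner and target DDIT3, known as CHOP, had 18.2, 19.02 and 18.4 CPM in shControl and 47.3, 44.02 and 40.2 CPM in shRIPOR3 (1.23 ± 0.0624), the kinase-like inhibitor TRIB3 changed by 0.70 ± 0.0634, and the sestrin SESN2, which restrains mTORC1, by 0.78 ± 0.0819. CHAC1, which degrades glutathione, had 1.35, 0.702 and 1.19 CPM in shControl and 2.58, 2.33 and 2.66 CPM in shRIPOR3 (1.15 ± 0.212), and CTH, which makes cysteine, had 5.14, 4.77 and 4.601 CPM in shControl and 10.1, 9.06 and 9.07 CPM in shRIPOR3 (0.94 ± 0.0953). XPOT, which exports tRNA from the nucleus (0.50 ± 0.0345), and PPP1R15A, which directs dephosphorylation of eIF2 (0.65 ± 0.0528), rose too. DDIT4, an inhibitor of mTORC1 that is also a hypoxia target, was the 1 that fell, with 57.1, 55.8 and 61.1 CPM in shControl and 32.7, 36.6 and 37.95 CPM in shRIPOR3 (-0.69 ± 0.0543); 41.2% of its exonic bases lie opposite DDIT4-AS1, and whether the counting used strand is not given in the sources used here. ASNS, asparagine synthetase, had only 0, 1 and 2 counts in shControl and 4, 3 and 9 in shRIPOR3 (2.35 ± 0.769). GENCODE 29 places 44.6% of its exonic bases in another gene on the same strand, and its call was lost without replicate 1 of shControl (log2 fold change 1.72) or replicate 3 of shRIPOR3 (2.00). Without replicate 3 of shControl the value was 3.09.

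The serine pathway enzymes PSAT1 and PHGDH take glycolytic carbon to serine. PSAT1 had 63.8, 63.7 and 67.2 CPM in shControl and 129, 127 and 123 CPM in shRIPOR3 (0.96 ± 0.0392) and PHGDH had 105, 88.2 and 105 CPM in shControl and 159, 167 and 164 CPM in shRIPOR3 (0.71 ± 0.0496). SHMT2, which passes the serine carbon to folate in mitochondria, changed by 0.67 ± 0.0421, and MTHFD1L, a mitochondrial folate enzyme, by 0.49 ± 0.0451. SLC3A2, the heavy chain that carries several amino acid transporters to the membrane, had 155, 151 and 160.1 CPM in shControl and 280.2, 275 and 286 CPM in shRIPOR3 (0.85 ± 0.0386). Its light chains moved with it: SLC7A11, the cystine importer, had 43.9, 43.7 and 48.5 CPM in shControl and 78.1, 78.9 and 86.4 CPM in shRIPOR3 (0.84 ± 0.0525), and SLC7A5, the importer of large neutral amino acids, had 159, 152 and 165 CPM in shControl and 255, 254 and 259 CPM in shRIPOR3 (0.69 ± 0.0407). The glutamine transporter gene SLC1A5 rose (0.44 ± 0.0423) and the glutamate transporter gene SLC1A3 fell (-0.34 ± 0.0562). Without replicate 2 of shRIPOR3, and in thinned libraries, 1 transporter gene fell.

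Of the tRNA synthetases, those for glycine, alanine and tryptophan moved most. GARS had 276, 275 and 279 CPM in shControl and 486, 467 and 484 CPM in shRIPOR3 (0.79 ± 0.0353), AARS had 278, 263 and 282 CPM in shControl and 459, 450.4 and 455 CPM in shRIPOR3 (0.73 ± 0.0364), WARS had 124, 122 and 120.4 CPM in shControl and 200.3, 195 and 201 CPM in shRIPOR3 (0.70 ± 0.03602) and YARS changed by 0.54 ± 0.03503. The groups did not overlap for any of the 4. The 2 that fell, those for aspartate and valine, had log2 fold changes of -0.26 (DARS) and -0.13 (VARS).

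Promoters were searched for TGATGNAAN, a loose form of the C/EBP-ATF response element, on both strands, in the 250 bases before and 50 after each start in RefSeq (GRCh38.p14). The element is also open to other C/EBP and ATF factors. A match was found in 2.87% of the 10770 tested genes with a promoter in the table and in 3.61% of all 35116 promoters. It was found in 3.74% of genes that rose, 2.51% of genes that fell and 2.55% of genes not called. On the lists the shares were 5 of 18 ATF4 genes, 6 of 19 transporters, 5 of 12 synthetases and 1 of 10 serine, proline and one-carbon enzymes. Stretches from 5 genes that rose and, for contrast, 1 that fell are shown because they hold the element in a list that moved. Each runs 5′ to 3′ on the gene's strand, with the match in capitals. They lie at chr15:40953241-40953289 (plus strand), chr19:33374051-33374099 (plus), chr16:70289666-70289714 (minus), chr9:92293698-92293731 (minus), chr19:46784883-46784931 (minus) and chr5:36596348-36596396 (plus).
CHAC1: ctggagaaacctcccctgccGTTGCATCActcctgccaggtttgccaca
CEBPG: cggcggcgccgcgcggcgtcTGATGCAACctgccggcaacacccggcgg
AARS: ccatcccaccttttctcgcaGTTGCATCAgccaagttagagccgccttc
IARS: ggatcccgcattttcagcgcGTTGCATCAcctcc
SLC1A5: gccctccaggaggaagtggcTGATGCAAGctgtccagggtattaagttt
SLC1A3: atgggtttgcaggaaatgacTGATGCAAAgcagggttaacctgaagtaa
CHAC1, AARS and IARS hold the element in the reverse orientation and share the run GTTGCATCA. CEBPG, a C/EBP partner of ATF4, changed by 0.36 ± 0.05898, and IARS, the isoleucine synthetase, by 0.46 ± 0.0357. A match describes the letters only.

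Interferon-stimulated genes fell in part. Interferons bind receptors that activate a transcription factor complex, with IRF9 in it, which binds the interferon-stimulated response element (ISRE), and IRF1 and IRF3 can bind related letters. Cancer cell lines often express these genes at a low level without added interferon. On the list 2 of 41 rose and 20 fell, and 8 fell at least 2-fold, with a median of -0.37. The share called was 53.7%, beside 45.7% of all genes. PLSCR1, a phospholipid scramblase, was among those that rose (0.37 ± 0.06504). The count of 2 became 1 with other scalings and low-count filters, with only the 2 groups in the fit, in thinned libraries, in DESeq2, and without replicate 1 or 2 of shControl or any 1 replicate of shRIPOR3. As earlier results on these libraries already showed the fall, the list is not independent evidence of it.

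OASL, which helps the RNA sensor RIG-I, had 18.96, 17.9 and 18.3 CPM in shControl and 3.31, 3.98 and 4.31 CPM in shRIPOR3 (-2.22 ± 0.102, edgeR adjusted p = 1.69e-14). GBP2, an interferon-induced GTPase, had 9.46, 10.2 and 7.91 CPM in shControl and 2.51, 2.33 and 2.98 CPM in shRIPOR3 (-1.77 ± 0.123). The IFIT proteins bind foreign RNA ends and block its translation, and their genes lie in a row on chromosome 10. IFIT1 had 34.3, 36.99 and 32.5 CPM in shControl and 11.4, 10.4 and 11.8 CPM in shRIPOR3 (-1.62 ± 0.0645), IFIT2 had 49.1, 51.7 and 47.9 CPM in shControl and 17.2, 18.5 and 18.4 CPM in shRIPOR3 (-1.44 ± 0.0543) and IFIT3 had 102, 98.7 and 92.6 CPM in shControl and 42.4, 41.7 and 41.2 CPM in shRIPOR3 (-1.23 ± 0.0538). Their neighbour IFIT5 did not follow, with 57.9, 57.1 and 56.2 CPM in shControl and 61.1, 62.1 and 60.9 CPM in shRIPOR3, a log2 fold change of 0.11 ± 0.04999 that did not pass the test. BST2, or tetherin, which holds budding virus at the membrane, had 4.95, 5.68 and 4.17 CPM in shControl and 2.45, 2.01 and 2.21 CPM in shRIPOR3 (-1.13 ± 0.157), IFI44 had 9.85, 13.3 and 11.3 CPM in shControl and 5.09, 4.71 and 4.66 CPM in shRIPOR3 (-1.24 ± 0.107), and the transcription factor IRF1 had 6.93, 7.44 and 7.37 CPM in shControl and 4.56, 3.84 and 3.99 CPM in shRIPOR3 (-0.82 ± 0.109). OAS2 had 0.752, 0.561 and 1.19 CPM in shControl and 0.331, 0.229 and 0.665 CPM in shRIPOR3; its groups overlapped, and the call (-1.0 ± 0.361) was lost in DESeq2 and without replicate 3 of shControl or replicate 1 or 2 of shRIPOR3, and without replicate 3 of shRIPOR3 the value was -1.69. ISG15, a ubiquitin-like modifier and a standard interferon readout, had 16.6, 15.5 and 17.9 CPM in shControl and 13.6, 15.5 and 15.3 CPM in shRIPOR3, a change of -0.18 ± 0.0802 that did not pass the test, and was called with only the 2 groups in the fit (edgeR adjusted p = 0.0255) and without replicate 2 of shControl. STAT2 had 0.07 ± 0.0944.

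The ISRE was searched as GAAA, any 2 bases and GAAA again, and these letters were looked for in the same promoters on both strands. They were found in 4.06% of tested genes with a promoter and in 3.57% of all promoters, against 22 of 32 genes on the interferon list. Among list genes they were in 12 of the 16 called and in 10 of the 16 not called. Genes that rose (3.91%), fell (4.69%) or were not called (3.85%) across the whole table held them at the shares given in parentheses. Stretches from 4 genes that fell come first, and 3 that were not called and 1 that rose follow, because they show the same letters on both sides. They lie at chr10:89392487-89392549 (plus), chr10:89327821-89327904 (plus), chr1:78649751-78649788 (plus), chr19:17405725-17405780 (minus), chr1:1013364-1013419 (plus), chr10:89414503-89414567 (plus), chr11:320866-320932 (minus) and chr3:146544657-146544706 (minus), and capitals mark the match.
IFIT1: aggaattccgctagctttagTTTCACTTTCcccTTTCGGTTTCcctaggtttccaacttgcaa
IFIT3: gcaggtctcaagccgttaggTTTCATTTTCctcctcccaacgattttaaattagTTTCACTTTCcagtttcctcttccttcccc
IFI44: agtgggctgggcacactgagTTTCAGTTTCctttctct
BST2: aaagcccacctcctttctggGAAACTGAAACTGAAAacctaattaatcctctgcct
ISG15: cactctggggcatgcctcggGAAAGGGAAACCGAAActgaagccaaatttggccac
IFIT5: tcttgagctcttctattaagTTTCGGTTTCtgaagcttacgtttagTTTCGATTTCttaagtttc
IFITM3: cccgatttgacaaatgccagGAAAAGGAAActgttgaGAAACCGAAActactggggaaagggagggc
PLSCR1: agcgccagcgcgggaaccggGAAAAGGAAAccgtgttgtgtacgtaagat

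**Figure D3:**
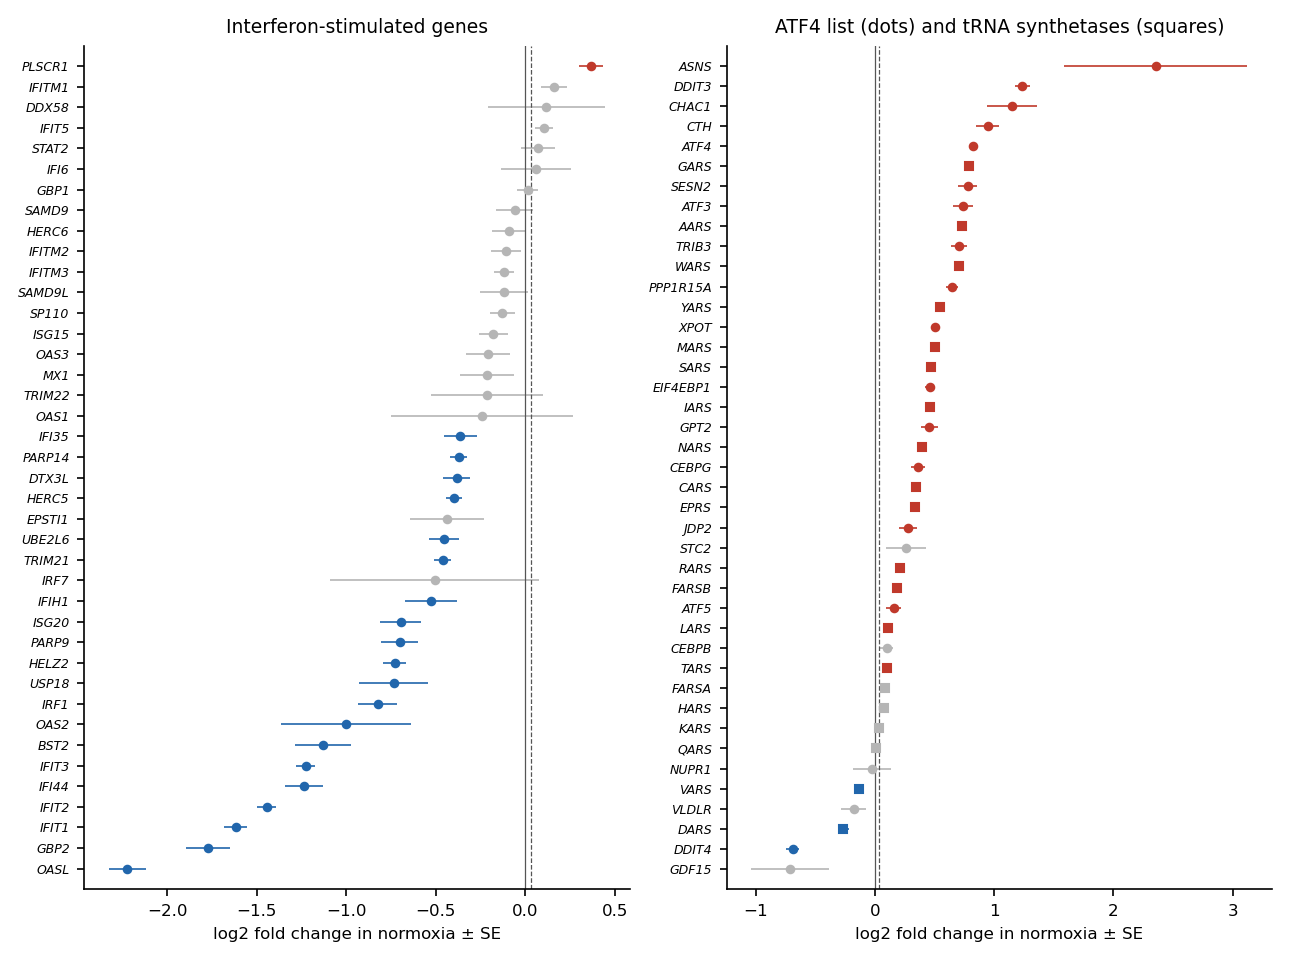
log2 fold change in normoxia ± SE of tested members of the interferon list (left, 1 member not shown) and of the ATF4 and tRNA synthetase lists (right); red rose, blue fell, grey was not called, and the dashed line is the median of all genes (0.03). Interferon genes spread from OASL at -2.22 to PLSCR1 at 0.37, and most of the right panel lies above the dashed line, with ASNS resting on few counts.

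Other immune lists were mixed. Of the interferon receptors and nucleic acid sensors 1 of 17 rose and 6 fell (41.2% called, beside 45.7% of all genes), and under glmTreat none passed. The adaptors TMEM173, known as STING (-0.48 ± 0.131, a call lost without replicate 3 of shRIPOR3), and MAVS (-0.21 ± 0.0419) fell and MB21D1, known as the DNA sensor cGAS (0.26 ± 0.0648), rose. In thinned libraries the call of MB21D1 was lost. Of class I antigen presentation genes 1 of 16 rose and 7 fell (50% called). HLA-B, which presents peptides to T cells, had 44.3, 46.2 and 45.6 CPM in shControl and 29.02, 29.01 and 28.99 CPM in shRIPOR3 (-0.64 ± 0.0588), the transactivator gene NLRC5 changed by -0.65 ± 0.12 and the peptide-loading gene TAPBP by -0.46 ± 0.0608, while HLA-E rose (0.13 ± 0.0451), a call lost with only the 2 groups in the fit and without replicate 2 of shControl or replicate 2 or 3 of shRIPOR3. HLA genes share reads with their relatives.

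Cytokine and NF-kB genes split: 6 of 25 rose and 9 fell. TNFAIP3, the A20 brake on NF-kB signalling, had 10.7, 8.91 and 9.095 CPM in shControl and 22.1, 21.6 and 21.7 CPM in shRIPOR3 (1.18 ± 0.0663), IL24 had 0.871, 0.772 and 0.791 CPM in shControl and 3.04, 3.43 and 3.05 CPM in shRIPOR3 (1.95 ± 0.172) and the neutrophil chemokine CXCL8 had 3.01, 3.02 and 2.804 CPM in shControl and 3.9, 5.399 and 4.76 CPM in shRIPOR3 (0.70 ± 0.138). The chemokine CXCL1 changed by 2.58 ± 0.549 at under 1 CPM in every library. IL1B, the inflammatory cytokine, had 14.5, 14.9 and 14.8 CPM in shControl and 7.47, 7.28 and 7.18 CPM in shRIPOR3 (-1.01 ± 0.0777), the macrophage growth factor CSF1 had 29.96, 31.9 and 30.9 CPM in shControl and 16.1, 16.9 and 15.1 CPM in shRIPOR3 (-0.95 ± 0.0598), the adhesion molecule ICAM1 changed by -0.98 ± 0.188, and CXCL11, an interferon-induced T-cell chemokine, by -2.63 ± 0.541 at under 1 CPM.

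Mitotic genes were lower by small amounts. Of 43 genes that act in mitosis 36 fell and 1 rose, with a median of -0.24, and under glmTreat 14 fell. MKI67, the proliferation antigen, had 1030, 1043 and 1031 CPM in shControl and 733, 705 and 721 CPM in shRIPOR3 (-0.52 ± 0.0366). ASPM, a spindle pole protein (-0.54 ± 0.0379), DLGAP5, a spindle assembly factor (-0.52 ± 0.038), and MYBL2, a transcription factor of mitotic genes (-0.51 ± 0.0379), fell, while AURKB, the kinase of the chromosomal passenger complex, rose (0.18 ± 0.0378). FOXM1, which drives many of these genes, changed by -0.23 ± 0.0379. Of 42 replication and E2F genes 4 rose and 18 fell, among them the polymerase gene POLE (-0.61 ± 0.0402), RPA2 (-0.53 ± 0.0464) and the ligase gene LIG1 (-0.46 ± 0.0378), and CCNE1, the cyclin that starts S phase, rose (0.59 ± 0.0512). Of the 42 replication and E2F genes 52.4% were called, beside 45.7% of all genes. The 4 that rose became 2 in thinned libraries and without replicate 3 of shRIPOR3. E2F1 had 0.00 ± 0.0536. The E2F letters searched, TTTCGCGC and TTTGGCGC, were in 2 of 36 promoters of mitosis genes beside 2.49% of tested genes.

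Inhibitors of G1 kinases were among the genes that fell. CDKN2D, or p19, had 60.9, 59.7 and 59.4 CPM in shControl and 26.4, 31.4 and 29.5 CPM in shRIPOR3 (-1.03 ± 0.0496), CDKN2C, or p18, had 24.6, 22.5 and 23.8 CPM in shControl and 12.5, 12.3 and 12.8 CPM in shRIPOR3 (-0.92 ± 0.0628), and CDKN1A, or p21, had 20.2, 18.7 and 19.4 CPM in shControl and 11.9, 11.9 and 11.7 CPM in shRIPOR3 (-0.72 ± 0.07002). CDK6, one of the kinases they restrain, fell (-0.65 ± 0.0585), as did CCNG2 (-1.1 ± 0.1095), while its relative CCNG1 rose (0.52 ± 0.0553). On the whole list 2 of 16 rose and 9 fell, and 1 rose without replicate 2 of shRIPOR3. Of p53 targets 5 of 19 rose and 5 fell: GADD45A (0.74 ± 0.0554), PLK2 (0.42 ± 0.0399) and AEN (0.29 ± 0.0378) rose, and MDM2 fell (-0.40 ± 0.0529). Of these targets 52.6% were called, beside 45.7% of all genes. MDA-MB-231 carries mutant p53. The 5 that rose became 3 without replicate 1 or 3 of shControl or replicate 1 of shRIPOR3, and the 5 that fell became 3 without replicate 1 of shControl. In thinned libraries 3 rose and 3 fell, and in DESeq2 3 fell. Of apoptosis regulators 5 of 22 rose and 7 fell: the caspase activator APAF1 (-0.68 ± 0.0693) and the proapoptotic BMF (-1.72 ± 0.339) fell, and the survival genes BIRC2 (0.47 ± 0.0395) and BCL2A1 (1.71 ± 0.306) rose. Among these regulators 54.5% were called, beside 45.7% of all genes.

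The collagenase gene MMP1 and the stromelysin genes rose and the genes of their tissue inhibitors fell. Of matrix metalloproteinases, ADAMTS proteases and inhibitors 7 of 26 rose and 7 fell (53.8% called, beside 45.7% of all genes). Beside MMP1 and MMP3, MMP10 rose (1.61 ± 0.519) at under 1 CPM, with its call lost without replicate 3 of shControl or replicate 2 of shRIPOR3 and a value of 2.63 without replicate 1 of shControl, and the protease gene ADAMTS1 rose (1.24 ± 0.0915). All 4 tissue inhibitors of metalloproteinases fell. TIMP3, which is held in the matrix, had 93.6, 90.9 and 90.6 CPM in shControl and 40.5, 38.1 and 39.6 CPM in shRIPOR3 (-1.22 ± 0.04104), TIMP1 had 63.3, 70.7 and 65.96 CPM in shControl and 45.6, 46.95 and 48.7 CPM in shRIPOR3 (-0.49 ± 0.0477), TIMP2 had 78.5, 80.9 and 79.8 CPM in shControl and 63.5, 64.1 and 66.1 CPM in shRIPOR3 (-0.30 ± 0.0398) and TIMP4 changed by -1.92 ± 0.255. MMP14, a membrane collagenase, fell slightly (-0.18 ± 0.03801), and the gelatinase MMP9 had 4, 5 and 12 counts in shControl and 3, 1 and 5 in shRIPOR3 (-1.16 ± 0.611), which did not pass the test. In the plasminogen system 8 of 17 rose and 8 fell. The urokinase receptor PLAUR had 295, 298 and 309 CPM in shControl and 465, 476 and 449.9 CPM in shRIPOR3 (0.62 ± 0.0519), the plasminogen activators PLAT (-0.66 ± 0.0457) and PLAU (-0.18 ± 0.0436) fell, and S100A10, a plasminogen-binding partner of annexin A2, fell (-0.84 ± 0.0507).

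Matrix components fell and rose in near equal number: 9 of 28 rose and 11 fell. The 3 chains of collagen VI, a filament around cells, all fell. COL6A1 had 63.8, 59.5 and 65.3 CPM in shControl and 21.8, 22.9 and 22.2 CPM in shRIPOR3 (-1.50 ± 0.0493, edgeR adjusted p = 6.52e-17), COL6A2 had 17.4, 16 and 17.04 CPM in shControl and 7.87, 7.92 and 7.67 CPM in shRIPOR3 (-1.11 ± 0.0757) and COL6A3 had 2.098, 2.597 and 2.59 CPM in shControl and 1.32, 0.869 and 1.08 CPM in shRIPOR3 (-1.17 ± 0.186). Fibronectin, FN1, had 339.5, 334 and 347 CPM in shControl and 184, 179.5 and 182 CPM in shRIPOR3 (-0.91 ± 0.0382). The matricellular genes CTGF, with 149.7, 149 and 157 CPM in shControl and 305, 307 and 309 CPM in shRIPOR3 (1.01 ± 0.0377), and THBS1, with 75.99, 74.1 and 77.3 CPM in shControl and 133, 134 and 129.9 CPM in shRIPOR3 (0.80 ± 0.0377), rose, as did the fibrillar chain COL5A2 (1.75 ± 0.183). Of integrin and laminin genes 4 of 24 rose and 12 fell, with a median of -0.35. ITGA3, a laminin receptor chain, had 428, 417 and 438 CPM in shControl and 222, 233 and 237 CPM in shRIPOR3 (-0.89 ± 0.0393), ITGA2, a collagen receptor chain, changed by -0.55 ± 0.0444, and LAMA5 by -0.81 ± 0.0524, whereas LAMA1 rose from 1.21 to 4.499 CPM (1.95 ± 0.174).

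The GTPase and actin lists are nearest to the known role of the RIPOR family. Of 43 genes of the RIPOR family, RHOA-family GTPases and their effectors 5 rose and 14 fell, RIPOR3 included (44.2% called, beside 45.7% of all genes; 3 rose without replicate 1 of shControl), with a median of -0.07. RHOA had 436, 419.8 and 445 CPM in shControl and 438, 425 and 448 CPM in shRIPOR3, overlapping groups with a change of 0.01 ± 0.0389, and RHOB had 0.13 ± 0.136. RHOC fell (-0.18 ± 0.0517), RND3, which opposes RHOA, rose (0.40 ± 0.0485), the CDC42 effector CDC42EP1 rose (0.48 ± 0.0437), and RAC2 (-0.56 ± 0.0505), the kinases LIMK1 (-0.57 ± 0.0538) and PAK4 (-0.39 ± 0.0436) and the CDC42 relative RHOJ (-1.47 ± 0.333) fell. Of 39 actin and contractile genes 8 rose and 17 fell (64.1% called), with a median of -0.08. MYH9, the heavy chain of nonmuscle myosin IIA, had 3217, 2942 and 3170 CPM in shControl and 1746, 1848 and 1862 CPM in shRIPOR3 (-0.77 ± 0.0419), and the adhesion proteins TLN1 (-0.37 ± 0.0359) and TNS3 (-0.55 ± 0.04598), the actin binder TAGLN2 (-0.45 ± 0.0428) and calponin CNN1 (-1.30 ± 0.393, a call lost without replicate 3 of shControl) fell. SRF had -0.05 ± 0.03898.

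YAP-linked genes mostly rose. Of YAP, TAZ and their targets 11 of 19 rose and 4 fell, with a median of 0.17. YAP1 rose (0.17 ± 0.0386) and WWTR1, which encodes TAZ, had 57.1, 59.6 and 58.8 CPM in shControl and 36.4, 33.5 and 34.03 CPM in shRIPOR3 (-0.76 ± 0.0448). Beside ANKRD1 and CTGF, the angiomotin gene AMOTL2 rose (0.64 ± 0.0393). Of TGF-beta, BMP and ID genes 15 of 33 rose and 9 fell. The latent TGF-beta binding proteins LTBP1, with 12.7, 11.9 and 13.3 CPM in shControl and 4.63, 5.86 and 5.11 CPM in shRIPOR3 (-1.28 ± 0.0938), and LTBP3, with 15.8, 17.6 and 16.6 CPM in shControl and 5.49, 5.81 and 6.69 CPM in shRIPOR3 (-1.44 ± 0.0828), fell with TGFB1 (-0.62 ± 0.05698) and the signal carrier SMAD3 (-0.58 ± 0.0417). The BMP antagonist NOG had 10.2, 11.2 and 10.2 CPM in shControl and 23.6, 22.3 and 19.96 CPM in shRIPOR3 (1.06 ± 0.0709), ID3, an inhibitor of helix-loop-helix factors and a BMP target, had 7.88, 8.35 and 7.801 CPM in shControl and 13.4, 15.2 and 15.6 CPM in shRIPOR3 (0.90 ± 0.0813), and the inhibitor SMAD7 rose (0.76 ± 0.182). The call of SMAD7 was lost in thinned libraries (log2 fold change 0.43).

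**Figure D4:**
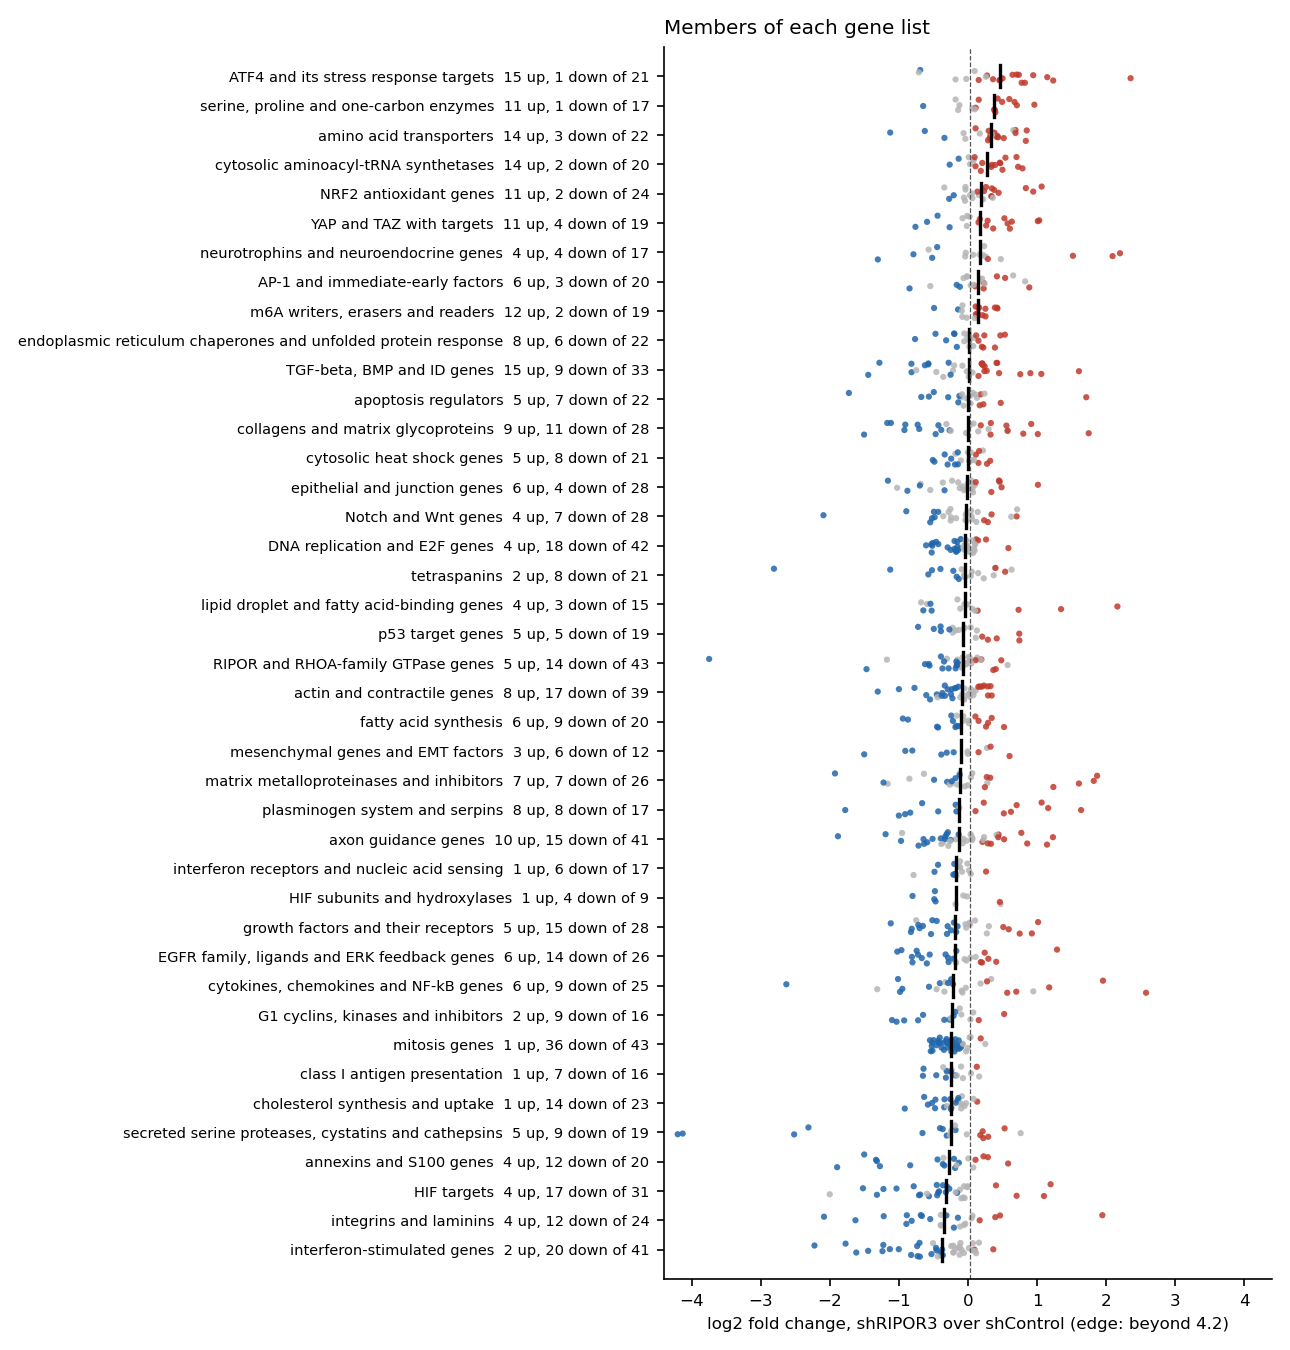
log2 fold change in normoxia of every tested member of 41 gene lists; each point is a gene (red rose, blue fell, grey not called), the black tick is the list median and the dashed line the median of all genes (0.03), with values beyond 4.2 drawn at the left edge. The ATF4, serine, transporter and tRNA synthetase lists sit at the top and the interferon list at the bottom with a median of -0.37.

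Growth factor signalling genes fell more often than they rose. Of 26 genes of the EGFR family and ERK feedback 6 rose and 14 fell. EGFR had 203, 212 and 209 CPM in shControl and 209, 197 and 209 CPM in shRIPOR3, with overlapping groups (-0.02 ± 0.0379), and its ligands HBEGF (-0.60 ± 0.0407), AREG (-0.74 ± 0.0792) and TGFA (-1.02 ± 0.179) fell. ERRFI1, which binds and inhibits EGFR, had 144, 153 and 146 CPM in shControl and 83.7, 85.5 and 82.7 CPM in shRIPOR3 (-0.81 ± 0.03899), and DUSP1, a phosphatase of stress kinases, had 27.9, 24.4 and 25.9 CPM in shControl and 56.8, 72.9 and 61.97 CPM in shRIPOR3 (1.29 ± 0.0711). Of immediate-early and AP-1 factors 6 of 20 rose and 3 fell: EGR1 rose (0.89 ± 0.128), FOSL1, the abundant AP-1 member of basal breast cancer lines, rose slightly (0.23 ± 0.0408), and JUND fell (-0.84 ± 0.0731). The share called among these factors was 45%, beside 45.7% of all genes, and without replicate 1 of shControl 1 of them fell. Of growth factors and receptors 5 of 28 rose and 15 fell, among them the AXL ligand GAS6, with 126, 117 and 123 CPM in shControl and 68.1, 69.9 and 70.8 CPM in shRIPOR3 (-0.81 ± 0.0401), IGFBP4 (-0.70 ± 0.0399), FGF5 (0.59 ± 0.0435) and the insulin receptor substrate IRS2 (1.01 ± 0.0854). Of Notch and Wnt genes 4 of 28 rose and 7 fell (39.3% called, beside 45.7% of all genes). The ligands WNT7B (-2.09 ± 0.211) and JAG1 (-0.49 ± 0.0424), the receptor NOTCH1 (-0.48 ± 0.0965) and the coreceptor LRP5 (-0.52 ± 0.0459) fell, and the Wnt inhibitor DKK1 rose (0.29 ± 0.03796).

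Axon guidance genes, many of which steer tumour cells and vessels, moved both ways: 10 of 41 rose and 15 fell. The semaphorin receptors PLXNA1, with 79.8, 72.1 and 76.2 CPM in shControl and 38.3, 38.9 and 39.6 CPM in shRIPOR3 (-0.97 ± 0.0476), PLXND1 (-0.72 ± 0.0439) and NRP1 (-0.64 ± 0.0376) fell. The secreted cues SLIT2, with 3.88, 3.86 and 4.098 CPM in shControl and 8.39, 8.97 and 8.82 CPM in shRIPOR3 (1.14 ± 0.0861), SEMA3D (1.23 ± 0.153) and SEMA3E (0.86 ± 0.105) and the receptor NRP2 (0.52 ± 0.101) rose. Of 12 mesenchymal genes and EMT factors 3 rose and 6 fell, with VIM at -0.21 ± 0.0369, the repressor ZEB1 at -0.39 ± 0.0435 and S100A4, a motility-linked calcium binder, at 21.01, 20 and 19.9 CPM in shControl and 6.54, 7.87 and 7.003 CPM in shRIPOR3 (-1.50 ± 0.0873). Of 28 epithelial and junction genes 6 rose and 4 fell (35.7% called), among them the desmosome gene DSP (0.49 ± 0.0423), KRT7 (0.46 ± 0.0468) and EPCAM (0.34 ± 0.113, a call lost without replicate 3 of either hairpin), which rose, and KRT15 (-1.16 ± 0.0852), which fell. Of 20 annexin and S100 genes 4 rose and 12 fell, 5 of them at least 2-fold; 2 rose without replicate 1 of either hairpin. The 6 epithelial genes that rose became 3 without replicate 3 of shRIPOR3. The endothelial adhesion gene PECAM1 had 5.14, 5.33 and 5.61 CPM in shControl and 1.26, 1.098 and 1.33 CPM in shRIPOR3 (-2.12 ± 0.154) and CDH5 changed by -0.74 ± 0.201, a call lost without replicate 3 of shControl. Blood and endothelial marker sums are given above, and their part in these differences was not tested.

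Sterol genes were lower. Of 23 genes of cholesterol synthesis and uptake 1 rose and 14 fell, with a median of -0.24, and under glmTreat 5 fell. The 1 that rose became 0 without replicate 3 of either hairpin. The synthase gene HMGCS1 had 66.96, 65.4 and 68.4 CPM in shControl and 42.4, 44.98 and 42.2 CPM in shRIPOR3 (-0.63 ± 0.0418), LSS changed by -0.52 ± 0.0486 and the master regulator SREBF2 by -0.34 ± 0.0428. Without replicate 2 of shControl the median of the list was -0.17, and without replicate 1 of shRIPOR3 it was -0.16. Of fatty acid synthesis genes 6 of 20 rose and 9 fell: the desaturases FADS2, with 150.3, 138 and 156 CPM in shControl and 64.2, 86.8 and 79.3 CPM in shRIPOR3 (-0.94 ± 0.0658), and SCD (-0.43 ± 0.0394) and the regulator SREBF1 (-0.87 ± 0.0674) fell, and ELOVL1 rose (0.52 ± 0.0524). Of lipid droplet and fatty acid-binding genes 4 of 15 rose and 3 fell (46.7% called, beside 45.7% of all genes). FABP4, a fatty acid carrier of fat cells and macrophages, had 1.74, 1.61 and 1.91 CPM in shControl and 7.87, 7.78 and 8.23 CPM in shRIPOR3 (2.16 ± 0.121), and G0S2, an inhibitor of fat breakdown, had 239, 221 and 225 CPM in shControl and 382, 392.5 and 366 CPM in shRIPOR3 (0.73 ± 0.0422).

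Subunits of the hypoxia-inducible factors were lower before any hypoxia: of HIF subunits and hydroxylases 1 of 9 rose and 4 fell. The share called on this list was 55.6%, beside 45.7% of all genes. HIF1A had 179.8, 179.8 and 180.3 CPM in shControl and 100.3, 102 and 107 CPM in shRIPOR3 (-0.80 ± 0.0388), its partner ARNT had 41.5, 45.1 and 43.6 CPM in shControl and 30.5, 30.02 and 31.8 CPM in shRIPOR3 (-0.49 ± 0.0477), ARNT2 changed by -0.48 ± 0.0737 and EPAS1 by -0.47 ± 0.0884, while VHL, which marks HIF proteins for destruction, rose (0.46 ± 0.0545). Of 31 HIF targets 4 rose and 17 fell, with a median of -0.32. BHLHE40, a clock and hypoxia repressor, had 20.8, 21.4 and 21.1 CPM in shControl and 7.87, 7.55 and 6.898 CPM in shRIPOR3 (-1.52 ± 0.06602), and NDRG1 had 170.1, 161 and 169.5 CPM in shControl and 71.8, 72.6 and 70.5 CPM in shRIPOR3 (-1.22 ± 0.0409). The vasoactive peptide gene ADM, with 33.05, 32.5 and 34.9 CPM in shControl and 77.3, 75.4 and 78.4 CPM in shRIPOR3 (1.2 ± 0.04802), and LOX, a collagen crosslinker, with 3.88, 1.75 and 2.91 CPM in shControl and 6.02, 6.31 and 6.86 CPM in shRIPOR3 (1.1 ± 0.146), rose.

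Of stress and RNA modification lists, the antioxidant genes of NRF2 rose in part: 11 of 24 rose and 2 fell, among them the heme-degrading HMOX1 (0.94 ± 0.129), NQO1 (0.38 ± 0.03404) and GCLC, the rate-limiting enzyme of glutathione synthesis (0.44 ± 0.0536), while NFE2L2, which encodes NRF2, had -0.04 ± 0.0398. FTH1 rose (0.34 ± 0.0619), with 62.4% of its exonic bases opposite another gene. On the NRF2 list 54.2% were called, beside 45.7% of all genes. Of endoplasmic reticulum genes 8 of 22 rose and 6 fell: the sensor gene ATF6 had 90.8, 94.3 and 87.1 CPM in shControl and 52.3, 54.1 and 53.2 CPM in shRIPOR3 (-0.77 ± 0.04098), the chaperone HSP90B1 fell (-0.47 ± 0.0419) and HERPUD1 rose (0.39 ± 0.0504). Of cytosolic heat shock genes 5 of 21 rose and 8 fell, with HSP90AA1 at -0.24 ± 0.0381 and HSPB1 at -0.51 ± 0.0578, which fell; 3 rose without replicate 1 of shControl or replicate 3 of shRIPOR3. Of m6A writers, erasers and readers 12 of 19 rose and 2 fell; 1 fell without replicate 1 of shControl or replicate 1 or 2 of shRIPOR3, and 5 with only the 2 groups in the fit. The readers YTHDF1 (0.43 ± 0.0408) and YTHDC2 (0.42 ± 0.0559) and the writer METTL16 (0.39 ± 0.0606) rose and IGF2BP3, a reader that stabilises bound mRNA, fell (-0.49 ± 0.0438).

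The hypoxia libraries, which share no library with the normoxia comparison, showed most of these differences again. Of the 3934 genes that rose in normoxia 2955 (75.1%) also rose in hypoxia and 179 fell, beside 30.7% of all tested genes. In all, 61.9% of genes passed in hypoxia. Of the 3217 that fell 2599 (80.8%) also fell and 94 rose, beside 31.2% of all tested genes. Of the 398 genes at least 2-fold lower 355 (89.2%) fell in hypoxia, and of the 266 at least 2-fold higher 185 rose. Across the 15648 genes the log2 fold changes of the 2 oxygen levels had a Pearson r of 0.693 and a Spearman rho of 0.671, a description, since genes are not independent replicates and the lines are the same.

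Genes with near equal changes included PAIP2 (-1.58 in normoxia and -1.72 in hypoxia), MAP4K4 (-1.40 and -1.47), GAS5 (1.23 and 1.23), FTL (1.07 and 1.1), DCLK1 (2.20 and 2.16), COL6A1 (-1.50 and -1.45) and PSAT1 (0.96 and 1.00), none of which passed the interaction test. The interaction of hairpin and oxygen level passed in 3624 genes (23.2%). Among them, the rise of MMP1 was smaller in hypoxia (0.90, interaction -0.97 ± 0.0529, edgeR adjusted p = 7.36e-12), as were those of UCA1 (1.3), SERPINB2 (1.08), CTGF (0.39), ADM (0.45) and TNFAIP3 (0.26). The fall of HIF1A in normoxia was not seen in hypoxia (-0.07 ± 0.0389, interaction 0.73 ± 0.0549, edgeR adjusted p = 1.49e-09). NDRG1 (-2.03), BHLHE40 (-2.06) and ERRFI1 (-1.69) fell further in hypoxia, each with an interaction that passed. NOL6, a nucleolar protein gene, was among the 5 genes named for a positive interaction, at 0.18 in normoxia and 1.07 in hypoxia. Among lists, 28 of 31 HIF targets had a negative interaction that passed, and their median was -0.32 in normoxia and -0.90 in hypoxia, whereas the interferon medians were -0.37 and -0.38, with 6 positive and 4 negative interactions in 41 genes.

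**Figure D5:**
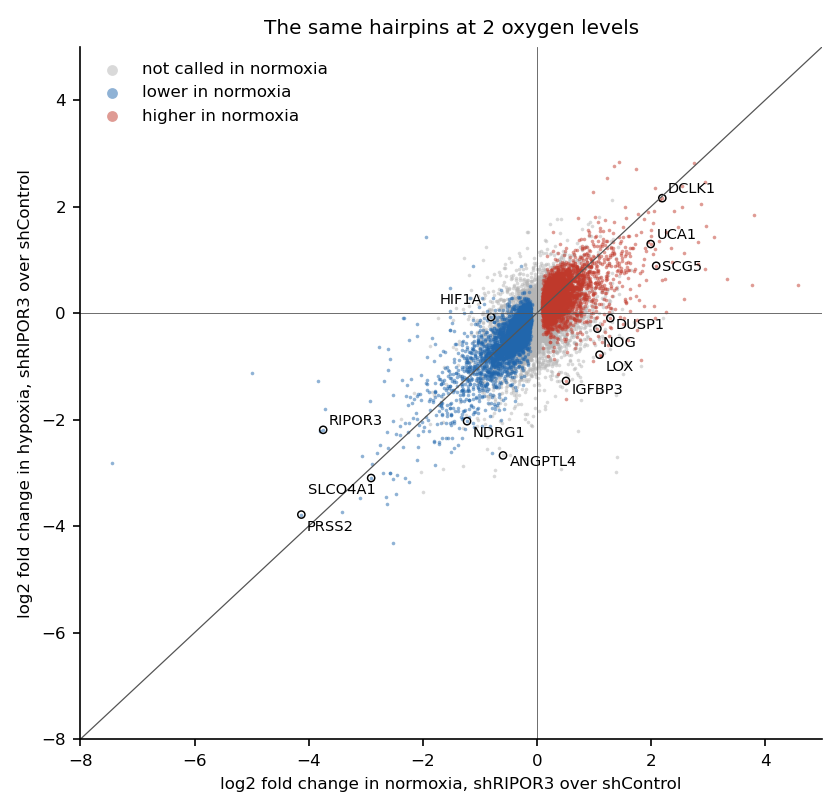
log2 fold change of shRIPOR3 over shControl in normoxia (x axis) and hypoxia (y axis) for 15648 genes, colored by the normoxia call; the diagonal marks equal change. Points follow the diagonal with a Pearson r of 0.693, and IGFBP3, LOX, DUSP1 and NOG, higher in normoxia, lie below 0 on the hypoxia axis.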

How the data were processed

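RNA was sequenced from 12 libraries of MDA-MB-231 cells, 3 for each pairing of hairpin and oxygen level. The authors deposited raw counts per gene symbol, and per the submitters' processing notes reads were trimmed with fastp 0.23.4 and aligned to GRCh38 with STAR 2.5.3a, and counts came from featureCounts. No source used here gives the annotation, the strand setting or the handling of duplicates; per the labels' protocols the library kit was stranded. Of 24641 symbols 24070 matched 1 gene of GENCODE 29, 35 matched several and 536 none. Spreadsheet software had turned 24 symbols into dates, and these are not named. Overlap of exons with other genes was computed from GENCODE 29, and promoters came from RefSeq (GRCh38.p14), which held one or more for 10770 tested genes.

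Counts were filtered with filterByExpr, scaled with TMM factors and fitted with edgeR 4.0.16 (R 4.3.3) over all 12 libraries with 1 coefficient per group, which gives 1 shared estimate of the spread. The quasi-likelihood test compared hairpins in normoxia, in hypoxia, and the difference between both (the interaction), each with Benjamini-Hochberg adjustment and a threshold of 0.05. Library totals in normoxia ran from 14750734 to 30032858 counts; intervals and floors cover counting error only. The method was tested on simulated data for the normoxia comparison with 15648 genes. In these, 200 genes with a mean above 1 CPM were changed, as many up as down. Of those changed 1.25-fold 63% were recovered and of those changed 2-fold 92%, with 16 calls among 15175 unchanged genes. In the data 45.7% of genes passed. Of the 266 genes at least 2-fold higher 143 had a mean under 1 CPM, and of the 398 at least 2-fold lower 189. The simulated rates therefore need not hold for this comparison. DESeq2 1.42.0 was an alternative; the others were RLE, upper-quartile and no scaling factors, other filters, a fit of the 2 groups alone, glmTreat at 1.2-fold, libraries thinned to 1 total, a threshold of 0.01, the replicate block and leaving out each library. Tables were handled with Python 3.11.15, pandas 2.3.3 and SciPy 1.17.1.

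Genes were named by rule: RIPOR3, its paralogs and the 3 nearest tested genes on each side; the 12 largest changes each way among called genes with at least 10 CPM in the higher group and groups that did not overlap; the 6 largest each way at 200 CPM or more; 4 long noncoding RNAs each way; from each of 46 gene lists the 4 called members of smallest p and the founding member; genes with no count in 1 group; and 5 genes each way for the interaction. Other list members, among them ASNS, CHAC1, PLSCR1, ISG15, IFIT5, the TIMP genes, COL6A2, COL6A3, NTRK2 and RHOA, and those whose promoters are printed, were chosen after their values were seen. Some genes that the rule selects are not reported here. The comparison and the lists were chosen with earlier results of these data known.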

Additional observations from a re-analysis of the deposited data

Results flagged for a closer look

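A total of 17 named genes had a hairpin effect that differed between hypoxia and normoxia by at least 1 on the log2 scale and passed edgeR's test of the interaction. Values are log2 fold changes of shRIPOR3 over shControl. Of genes that rose in normoxia, the effect was smaller or of the other sign in hypoxia for LOX (1.1 in normoxia, -0.78 in hypoxia, difference -1.88), IGFBP3 (0.51 in normoxia, -1.27 in hypoxia, difference -1.78), DUSP1 (1.29 in normoxia, -0.09 in hypoxia, difference -1.38), NOG (1.06 in normoxia, -0.29 in hypoxia, difference -1.35), HIF1A-AS2 (1.01 in normoxia, -0.56 in hypoxia, difference -1.57), TMEM45A (0.37 in normoxia, -1.14 in hypoxia, difference -1.51) and MMP10 (1.61 in normoxia, -0.50 in hypoxia, difference -2.11). The normoxia call of TMEM45A was lost in DESeq2, with only the 2 groups in the fit, in thinned libraries, and without replicate 1 or 3 of shControl or replicate 2 or 3 of shRIPOR3. That of MMP10 was lost without replicate 3 of shControl or replicate 2 of shRIPOR3, and its value without replicate 1 of shControl was 2.63. The rise of SCG5 was smaller in hypoxia: SCG5 (2.09 in normoxia, 0.89 in hypoxia, difference -1.20). FABP6, a bile acid-binding protein, had a larger rise: FABP6 (1.35 in normoxia, 2.77 in hypoxia, difference 1.43).

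Genes lower in both conditions, and by more in hypoxia, were CCNG2 (-1.1 in normoxia, -2.14 in hypoxia, difference -1.04), CDH5 (-0.74 in normoxia, -1.79 in hypoxia, difference -1.05) and ISG20 (-0.70 in normoxia, -1.72 in hypoxia, difference -1.03). ANGPTL4, a hypoxia-induced inhibitor of lipoprotein lipase, differed in the same direction: ANGPTL4 (-0.59 in normoxia, -2.67 in hypoxia, difference -2.08). The value was closer to 0 in hypoxia for TIMP4 (-1.92 in normoxia, -0.83 in hypoxia, difference 1.09), SERF1B (-2.34 in normoxia, -0.08 in hypoxia, difference 2.26) and PRSS1 (-7.45 in normoxia, -2.82 in hypoxia, difference 4.63). The normoxia value of SERF1B rests on uneven shControl libraries. The fitted normoxia value of PRSS1, and with it the difference, rests on a group at 0 and gives no bound. CD22, a B-cell lectin, was lower in normoxia (-0.28) and higher in hypoxia (0.89), a difference of 1.18. The normoxia call of CD22 was lost without replicate 2 of shRIPOR3 and that of CDH5 without replicate 3 of shControl. No explanation was tested for any of these differences.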

How the results depend on the processing

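No gene called in normoxia had the opposite call under any alternative, and the total of 7151 stayed between 5517 and 7144 under other scalings, filters, DESeq2, thinning, a threshold of 0.01 and the fit of the 2 groups alone. Tested against a 1.2-fold change with glmTreat, 2455 genes passed, 1122 higher and 1333 lower, and 533 for the interaction; that test asks for a larger change. A threshold of 0.01 left 2185 interactions, and a filter of 1 CPM in 3 libraries left 149 genes at least 2-fold higher and 281 at least 2-fold lower. Leaving out 1 library at a time gave 6286 to 6843 calls, 3372 to 3757 higher and 2859 to 3118 lower, 272 to 288 genes at least 2-fold higher and 395 to 415 at least 2-fold lower, and 2994 to 3626 interactions; RIPOR3 ran from -6.07 to -3.27, the former without replicate 3 of shRIPOR3, where the group is at 0. RIPOR3 gave no value with the 1 CPM filter, with thinned libraries or with the 2 groups alone, because it was filtered out.

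Sign changes among named genes were limited to 5 genes that were not called. E2F1 was -0.00296 with RLE factors, -0.0067 with upper-quartile factors, -0.0076 with library totals, -0.0039 with the 1 CPM filter, -0.029 with the 2 groups alone and -0.00103 with DESeq2, and ran from -0.033 to 0.041 over left-out libraries. RHOA was -0.021 with the 2 groups alone and ran from -0.011 to 0.032, EGFR in normoxia from -0.040 to 0.0046, BCAS4 from -0.12 to 0.029 and METTL1 from -0.198 to 0.038. The cause was not tested. The median of the cholesterol list ran from -0.24 to -0.16 over left-out libraries.

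No pairing by replicate number was seen: same-numbered libraries of the 2 hairpins had correlations of deviations from -0.0149 to 0.00869. These were taken over all tested genes, where counting noise of genes at low level enters, so they cannot exclude a pairing. With the replicate block 7120 genes were called, 3908 higher and 3212 lower, 261 at least 2-fold higher, 396 at least 2-fold lower and 3595 for the interaction, RIPOR3 was -3.69, and no call among 306 named genes changed.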
